A study of Homo sapiens with 32 samples.

Results

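The mRNAs of 45 large-subunit ribosomal protein genes were followed, out of 58721 genes in the expression tables. The members were given by name, RPL3 to RPL41 with RPLP0, RPLP1 and RPLP2, and each matched 1 Ensembl identifier. They were chosen with earlier results of these data known. All samples came from HEK293T, a human embryonic kidney cell line. Treatment was with thapsigargin (Tg) at 600 nM over 16 h, or with an equal volume of its solvent DMSO. Tg empties the calcium store of the endoplasmic reticulum and thereby causes stress in that organelle. The RNA-Seq groups were DD Tg, DD DMSO, WT Tg and WT DMSO, with 2 libraries each of polyadenylated RNA. DD stands for eIF3d (S528D, S529D), a phosphomimetic form of this subunit of the initiation factor eIF3, and WT for wild-type eIF3d. The Subunit-Seq groups were IP Tg, Input Tg, IP DMSO and Input DMSO, with 2 libraries each, all from cells of the genotype HA-eIF3d-TEV. In the IP, eIF3d was pulled down by its HA tag, its cap-binding domain was released with TEV protease, and the RNA left with it was sequenced. m6A-eCLIP, which locates the RNA modification N6-methyladenosine, gave 1 list of sites each for DD Tg, DD DMSO, WT Tg and WT DMSO. The labels do not say whether replicates were separate cultures, so p-values measure the spread between these libraries, which may be technical. They also do not say how eIF3d was replaced or whether a line was 1 clone.

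The large ribosomal subunit holds the peptidyl transferase centre, the exit tunnel for the new protein and the stalk that receives translation factors. Its proteins are made in matched amounts, and the mRNAs that encode them are among the most abundant of growing cells. Most of these mRNAs begin with a cytosine and a run of pyrimidines, the terminal oligopyrimidine (TOP) tract, through which LARP1 and the mTOR pathway control their translation. eIF3d can itself bind the cap of some mRNAs, and it is known for translation that goes on while the usual cap-binding factor is held back.

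The first bases of 12 members are printed because they show the TOP tract in the mRNAs that the results below turn on, ordered by their difference between eIF3d IP and Input in Tg, lowest first. Each line runs from 12 bases before to 18 bases from a RefSeq transcription start of the gene (GRCh38.p14), 5′ to 3′ on the strand of the gene, and capitals mark the tract.
RPL39 (chrX:119791613-119791642, minus strand): ttccgccagCTTCCCTCCTCTTCCTTTCTC
RPL29 (chr3:51995878-51995907, minus strand): cgcagccCCTTTCTCTTCCggttctaggcg
RPL28 (chr19:55385920-55385949, plus strand): cccctcgCCTTCCTCTTTCCgtctcaggtc
RPL12 (chr9:127451389-127451418, minus strand): cgcgatttccggCCTCTCggctttcggctc
RPL27 (chr17:42998407-42998436, plus strand): gggtgaaaggttagcggaagtgtccttctt
RPLP0 (chr12:120201094-120201123, minus strand): cgggcgcgaggCCCTTCTCTCgccaggcgt
RPLP1 (chr15:69452806-69452835, plus strand): taggcgcgagagCCCCTTTCCTCagctgcc
RPLP2 (chr11:809955-809984, plus strand): cgtcggcgCCTTCCTTTTCCTCCCTgtcgc
RPL3 (chr22:39319606-39319635, minus strand): aggccgaccggCCTCTaccggcgggatttg
RPL4 (chr15:66504838-66504867, minus strand): agcgggagtggtaagcaCTTCCTTTTCCTg
RPL26 (chr17:8383176-8383205, minus strand): cagcgtgtagttCTCTTCCCTTTTgcggcc
RPL22 (chr1:6199578-6199607, minus strand): ttcgctcaCCTCCCTTTCTaactccgctgc
A tract was counted where a C, followed by at least 4 more bases that were all C or T, began within 5 bases of a listed start, on the strand of the gene only. By that definition 33 of the 38 members with a listed start sequence had one (86.8%), with a median length of 11 bases and a range of 5 to 22. The same held for 84.0% of small-subunit protein genes, 84.6% of a list of other TOP mRNAs, 25.0% of large-subunit assembly factors and 25.2% of all 27305 genes with a start sequence. RPL27 had none in this window, whose listed start lies 146 bases inside the RefSeq span of the gene, so its first bases are not shown; in the other 11 printed genes both coincide. RPL22 and RPL26, the 2 members highest in IP relative to Input in Tg, had tracts of 11 and 12 bases, and RPL39, the lowest, had one of 22 bases, which runs just past the printed window.

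The RNA-Seq libraries held 4508483 to 10163214 reads and the Subunit-Seq libraries 5102852 to 16860637, as recovered from the steps of the RPKM values. Mitochondrial ribosomal RNA took 25.4% to 49.8% of the reads in 7 RNA-Seq libraries and 57.3% in DD Tg replicate 2, which stood apart from the rest. Input DMSO replicate 2 also stood apart, with 6395 genes at 1 RPKM or more, against 8503 to 13799 in the other 7 Subunit-Seq libraries. In Subunit-Seq, mitochondrial ribosomal RNA took 4.64% to 20.4% of the reads in the Input libraries and 0.286% to 0.705% in the IP libraries. The reads that RPKM divides by thus differed in make-up between IP and Input. Of the genes known in HEK293 cells, NEFM, NEFL and LIN28B were above 0 in every library and PAX2 in 13 of 16. In RNA-Seq, PAX2 was at most 0.194 RPKM, while MYH7, a muscle marker, reached 0.703 RPKM in WT DMSO replicate 1. A value above 0 alone thus does not mark the cell type. NEFM, a neurofilament gene, was 31.9 to 62.2 RPKM in the RNA-Seq libraries of replicate number 1 and 0.0693 to 1.23 RPKM in those of replicate number 2. Among 5 markers of other cell types, PTPRC was 0 in every library. COL1A1, a fibroblast collagen, was 13.2 to 19.0 RPKM in the RNA-Seq libraries of replicate number 1 and 0.0904 to 0.293 RPKM in those of number 2. In Subunit-Seq it was 49.9 RPKM in IP DMSO replicate 1, and 0.0837 to 2.89 RPKM in the other 7 libraries. Each group holds 1 library of each number, and the part of this difference in the results was not tested. EIF3D was above 0 in every library, which does not tell the WT and DD alleles apart.

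The 45 members differed widely in level. Averaged over the 8 RNA-Seq libraries, RPL41, a very short protein at the subunit interface, led with 2495 RPKM, followed by RPL29 with 2469 and RPL8 of the catalytic centre with 2348. RPL41 was the highest member only in DD DMSO replicate 2, at 9500 RPKM, while RPL29 led in the RNA-Seq libraries of replicate number 1. RPKM divides a gene's reads by its length in kilobases and by the depth of the library. The length behind it was the whole annotated exon length of the gene, 1088 bases for RPL41 and 8626 for RPL14, and not that of the mature mRNA. At the other end, RPL26 averaged 10.4 RPKM, RPL36A 0.747 and RPL17 0.636. The order of the 43 members that passed the filter below was close between libraries: Spearman correlations were 0.776 to 0.974 over the 21 pairs of RNA-Seq libraries without DD Tg replicate 2 and 0.648 to 0.845 over the 7 pairs with it.

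**Figure D1:**
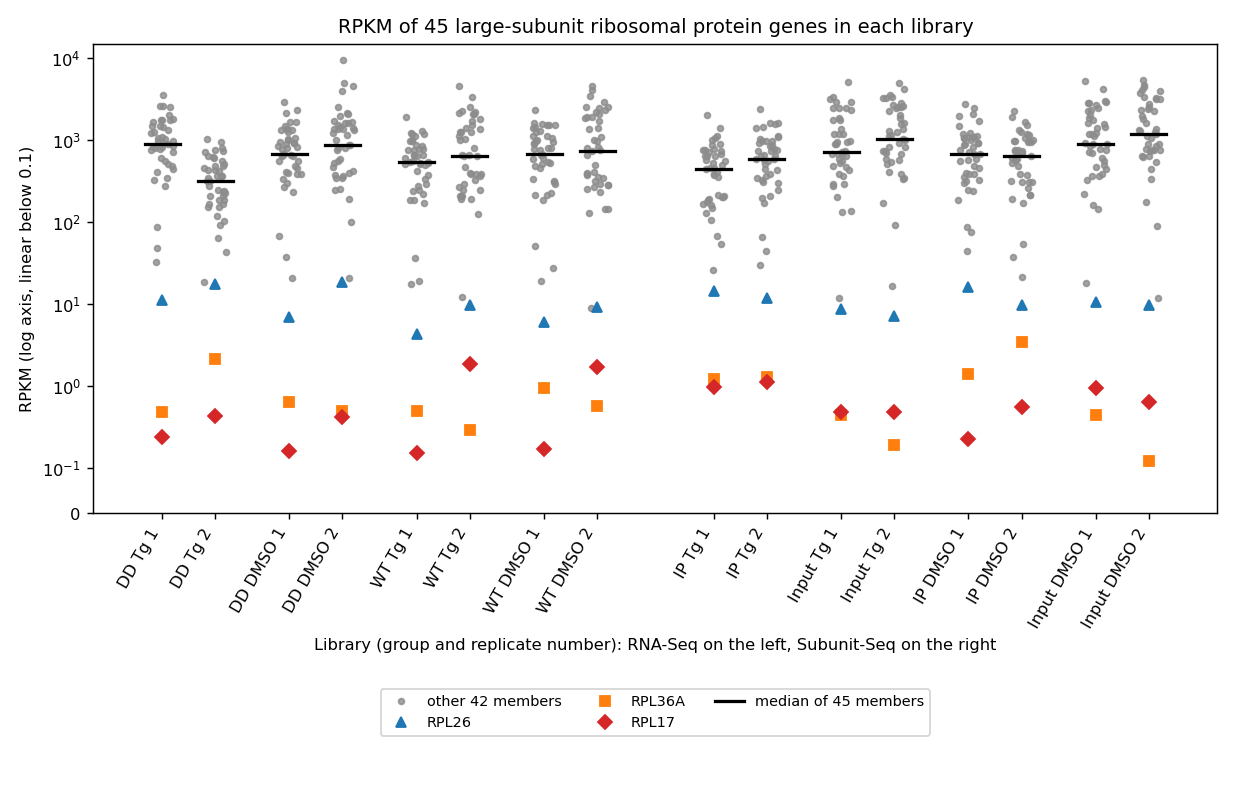
Level of each member in each library in RPKM, on an axis that is logarithmic above 0.1, with the 8 RNA-Seq libraries on the left and the 8 Subunit-Seq libraries on the right; bars are medians of the 45 members. The median is 315 RPKM in DD Tg replicate 2 and higher in the other 7 RNA-Seq libraries, and RPL36A and RPL17 sit below the rest in every library.

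The low values of RPL17, RPL36A and RPL26 went with reads counted to pseudogene copies. Over the RNA-Seq libraries 86 reads were counted to RPL17 and 22577 to the rows of its annotated pseudogenes, so the pseudogene rows held 99.6% of both. For RPL36A the counts were 174 and 31844, a share of 99.5%, and for RPL26 they were 1649 and 32564, a share of 95.2%. These 3 genes were the members with more reads on pseudogene rows than on their own. RPL22 and RPL23A followed with 38.4% and 34.4%. RPL21 had 24.9% and RPL41, first by mean RPKM, 19.2%. The median over the 45 members was 4.77%, and 30 members were under 10%. Reads from a gene and its near-identical copies may be split between rows, so the levels of the genes with high shares are uncertain. The read-through rows RPL17-C18orf32 and RPL36A-HNRNPH2 were listed at 0 in every library. RPL17 and RPL36A missed the filter of a mean of 1 RPKM, and 43 members were tested.

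Together the members took 14.6% and 5.03% of all reads in DD Tg, 11.7% and 17.2% in DD DMSO, 8.40% and 13.8% in WT Tg, and 10.6% and 15.7% in WT DMSO, replicate 1 first in each pair. DD Tg replicate 2 had the lowest share and DD DMSO replicate 2 the highest, and the groups overlapped. Outside mitochondrial ribosomal RNA the shares were 21.5% and 11.8% in DD Tg, 20.3% and 23.1% in DD DMSO, 16.7% and 19.6% in WT Tg, and 18.9% and 23.7% in WT DMSO. Counting error was below 0.1 percentage points in each, by 95% Wilson intervals. In bulk RNA, fewer cells of a type and less RNA per cell cannot be told apart.

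In WT cells, the fit over both replicate numbers put most members slightly below DMSO under Tg and most other genes slightly above it. The median difference in log2(RPKM + 1) was −0.23 for the 43 tested members and 0.12 for all 9637 genes tested, which puts the members 0.35 below. Relative to all genes the member median was −0.35 within replicate number 1 and −0.34 within replicate number 2. The 2 numbers reached this in different ways. In number 1 the medians were −0.35 for members and −0.0007 for all genes, with 40 members lower. In number 2 they were −0.10 and 0.24, with 26 members lower. No single member passed the test: limma called 0 of 43 members at a Benjamini-Hochberg adjusted p under 0.05, as it did 0% of all genes, and 0 members against 24 genes had an unadjusted p under 0.05. Lower values in both replicate numbers were found for 23 members, against 15.4% of all genes. For 6 members, RPL19, RPL29, RPL32, RPL35, RPL38 and RPL39, both Tg libraries were below both DMSO libraries, a pattern found for 3.73% of all genes.

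RPL32 had 882 and 1141 RPKM in WT Tg, against 1439 and 1862 RPKM in WT DMSO. RPL39, a small protein of the exit tunnel wall, had 1310 and 1261 RPKM in WT Tg, against 1528 and 2480 RPKM in WT DMSO. RPL29 had 1935 and 2117 RPKM in WT Tg, against 2353 and 3489 RPKM in WT DMSO. The groups did not overlap for these members, yet in each the 2 DMSO libraries were further apart than the lower of them was from the higher Tg library. The lowest differences were those of RPL27, −0.72 (SE 0.97, limma adjusted p = 1.0), with 534 and 1358 RPKM in WT Tg and 931 and 2103 RPKM in WT DMSO, and of RPL32, −0.71 (SE 0.82, limma adjusted p = 1.0). The highest were 0.21 for RPL4 and 0.18 for RPL15. By role, the interface proteins RPL23, RPL24, RPL30 and RPL41, which form bridges to the small subunit, had the lowest median relative to all genes, −0.605. It was −0.27 for the stalk proteins RPLP0, RPLP1, RPLP2 and RPL12, −0.26 for the exit tunnel, −0.30 for RPL5 and RPL11, which bind the 5S rRNA and are also known to restrain MDM2, and −0.13 for RPL3, RPL8 and RPL10 of the catalytic centre. Proteins of the small subunit had −0.41 and the list of other TOP mRNAs 0.08. With 1 library left out and no replicate block, the member median relative to all genes moved: without WT Tg replicate 1 it was 0.066, and without WT DMSO replicate 2 it was 0.024. Such fits set uneven replicate numbers against each other. Relative to all genes, the members stood higher in replicate 2 than in replicate 1, by 0.76 in WT DMSO and 0.61 in WT Tg. Within replicate numbers 1 and 2 the relative median was −0.35 and −0.34.

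In DD cells, the direction of the members turned with the replicate number. All 43 tested members were higher in DD Tg than in DD DMSO within replicate number 1, by 0.04 to 0.91 in log2(RPKM + 1). All 43 were lower within replicate number 2, by a difference of −4.51 to −0.03. The fitted median was −0.63 for the members and 0.02 for all genes, 0.65 apart. Limma called 0 of 43 members, as it did 0% of all genes, and 0 members against 25 genes had an unadjusted p under 0.05. The groups overlapped for every tested member. Relative to all genes, the member median was 0.21 in replicate number 1 and −1.47 in replicate number 2. Without DD Tg replicate 2 it was −0.06, and with the replicate number also held as a block it was 0.23. That library is the one with 57.3% of its reads on mitochondrial ribosomal RNA, and the part of this in the result was not tested. With reads outside these RNAs the shares above still set it lowest.

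The lowest fitted difference was that of RPL41, which had 1777 and 415 RPKM in DD Tg, against 1065 and 9500 RPKM in DD DMSO. Its difference was −1.89 (SE 1.18, limma adjusted p = 1.0), and the 2 DMSO libraries of this gene were further apart than the groups. RPL28 had 347 and 63.6 RPKM in DD Tg, against 332 and 583 RPKM in DD DMSO, a difference of −1.56. RPLP0, the base of the stalk, had 1476 and 166 RPKM in DD Tg, against 1370 and 1543 RPKM in DD DMSO. For RPLP0 and RPL28 the replicate 1 libraries were nearly level and DD Tg replicate 2 alone was low. The highest were RPL26 at 0.27, with 11.2 and 17.4 RPKM in DD Tg and 6.84 and 18.6 RPKM in DD DMSO, and RPL22 at 0.21. The role groups differed most in replicate number 2: relative medians were −2.08 for the catalytic centre, −1.69 for the stalk, −1.19 for RPL5 and RPL11, −1.09 for the interface and −0.81 for the exit tunnel. In replicate number 1 they were 0.72, −0.03, 0.39, 0.27 and 0.23, in that order of groups.

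**Figure D2:**
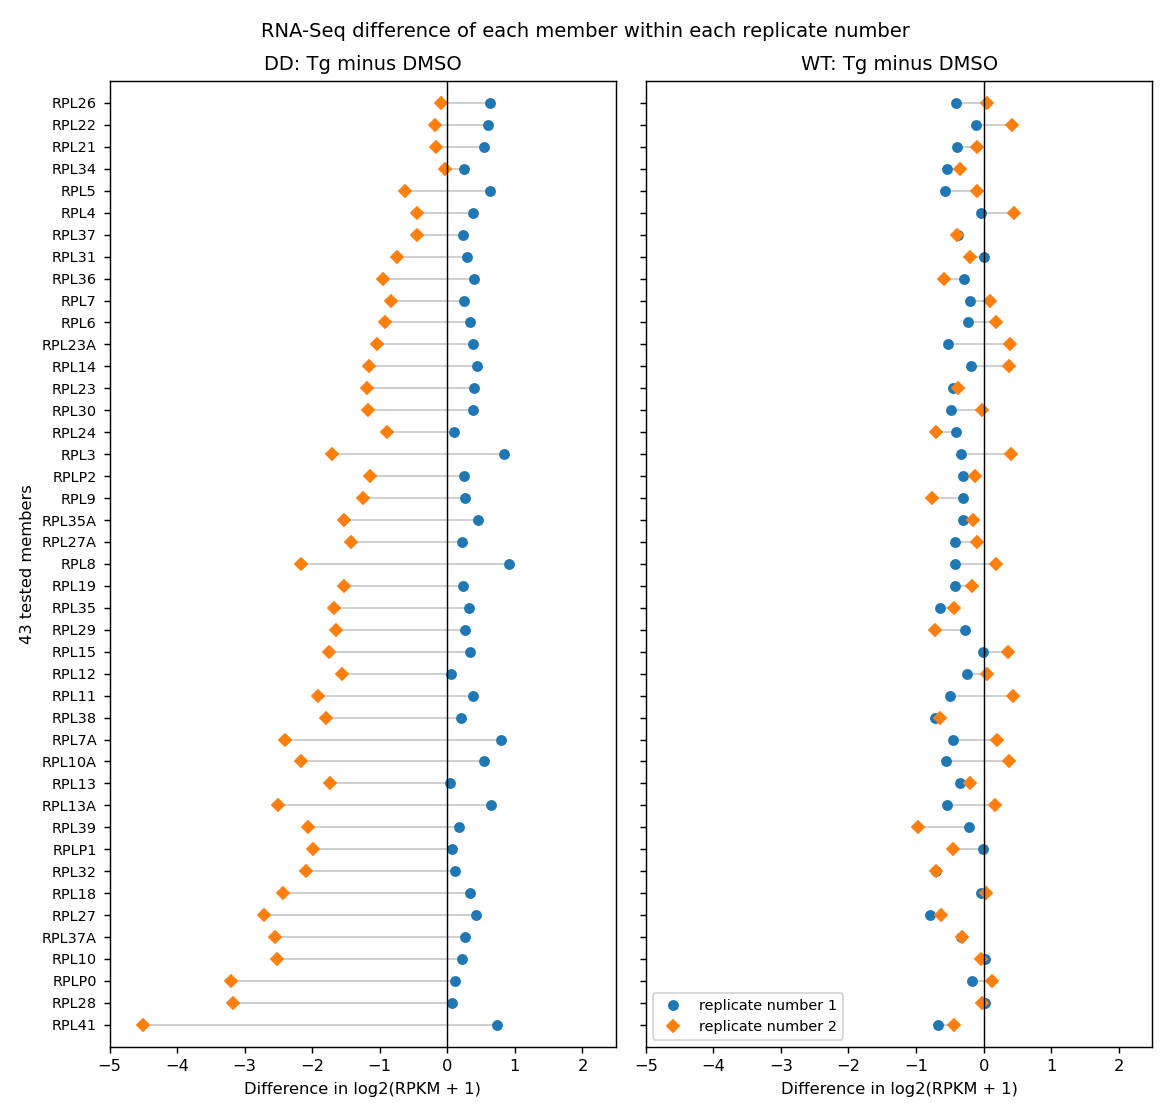
Difference in log2(RPKM + 1) between Tg and DMSO for each of the 43 tested members, in DD cells on the left and WT cells on the right; circles are replicate number 1 and diamonds replicate number 2. In DD cells all circles lie above 0 and all diamonds below it, down to −4.51 for RPL41, while in WT cells both lie between −0.98 and 0.45.

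Between genotypes no member passed either. In DMSO, the members stood 0.23 higher in DD than in WT cells, against 0.13 for all genes, and limma called 0 of 43 members and 0% of all genes, with 0 members and 68 genes at an unadjusted p under 0.05. Both DD libraries were above both WT libraries for 7 members, RPL6, RPL7, RPL7A, RPL14, RPL15, RPL22 and RPL35A, a pattern found for 11.1% of all genes. RPL7A had 1487 and 4999 RPKM in DD DMSO, against 899 and 1358 RPKM in WT DMSO, a difference of 1.30 (SE 0.91, limma adjusted p = 1.0). RPL7 had 893 and 1361 RPKM in DD DMSO, against 590 and 372 RPKM in WT DMSO, a difference of 1.23. RPL13 at −0.66 and RPLP1 at −0.65 were lowest, and both had overlapping groups. The relative median of 0.10 turned to −0.31 without WT DMSO replicate 1 and to −0.16 without DD DMSO replicate 2. These fits too had no replicate block and set uneven replicate numbers against each other. Within replicate numbers 1 and 2 the relative median was 0.18 and 0.06.

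Under Tg, the member median was −0.17 for DD minus WT, against 0.05 for all genes, and limma called 0 of 43 members and 0% of all genes, with 0 members and 82 genes at an unadjusted p under 0.05. RPL7, RPL14, RPL22, RPL26 and RPL31 had both DD libraries above both WT libraries, as had 10.2% of all genes. RPL7 had 1064 and 765 RPKM in DD Tg, against 512 and 399 RPKM in WT Tg, a difference of 1.00. With the DMSO values above, its 4 DD libraries lay at 765 to 1361 RPKM and its 4 WT libraries at 372 to 590 RPKM. RPL7 was named because it was among the highest members of both genotype comparisons. The share of all genes with all DD libraries above all WT libraries was not counted. RPL26 had 11.2 and 17.4 RPKM in DD Tg, against 4.28 and 9.59 RPKM in WT Tg, also 1.00. RPLP0 at −1.55 and RPLP1 at −1.38 were lowest, with DD Tg replicate 2 below both WT libraries and DD Tg replicate 1 above WT Tg replicate 1. The relative median of −0.22 was 0.70 in replicate number 1 and −1.15 in replicate number 2. It was 0.47 without DD Tg replicate 2 and 0.05 without WT Tg replicate 2.

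The interaction, the Tg difference in DD cells minus that in WT cells, had a member median of −0.30 against −0.10 for all genes. Limma called 0 of 43 members and 0% of all genes, with 0 members and 21 genes at an unadjusted p under 0.05. It ranged from −1.55 for RPL28 and −1.53 for RPLP0 to 0.45 for RPL26 and 0.55 for RPL34. Within replicate number 1 every tested member was above 0, and within replicate number 2 it was below 0 for 42 of 43, so the interaction too turned with the replicate number. The RNA-Seq comparisons share libraries with each other and are not independent. Without DD Tg replicate 2 the relative median was 0.32 in place of −0.20, and it also turned without WT DMSO replicate 1 (0.03) and without DD DMSO replicate 2 (0.05).

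In Subunit-Seq the members stood out in the other direction to most genes: they were lower in the eIF3d IP than in the Input, in Tg and in DMSO. In Tg the median of IP minus Input was −0.98 for the 43 tested members and 0.87 for all 9813 genes tested. Limma with a replicate block called 16 members lower and 0 higher at a Benjamini-Hochberg adjusted p under 0.05, against 1.62% of all genes called lower. In DMSO the medians were −0.94 and 0.96, and 14 members were called lower and 0 higher, against 1.75% of all genes called lower. Of all genes, 1432 were called higher and 159 lower in Tg, and 2100 higher and 172 lower in DMSO. Both IP libraries were below both Input libraries for 33 members in Tg and 35 in DMSO, against 6.35% and 6.76% of all genes.

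Called lower under both treatments were 13 members, RPL10A, RPL12, RPL13, RPL13A, RPL18, RPL27, RPL28, RPL29, RPL32, RPL35, RPL39, RPLP0 and RPLP1. RPL19, RPL35A and RPL41 were called in Tg alone, RPL36 in DMSO alone and 26 members in neither. The calls leaned on single Input libraries and on the spread that limma pools over genes. Without Input Tg replicate 1 the Tg count was 0, without Input Tg replicate 2 it was 4, and without an IP Tg library it was 8 or 10. The DMSO count was 0 without Input DMSO replicate 2, 3 without IP DMSO replicate 2, 8 without Input DMSO replicate 1 and 7 without either Input Tg library. With each gene's own spread, without the replicate block, with no filter on low values or with median-ratio scaling, it was 0 under both treatments, and far fewer of all genes were called too (24 to 85 without the block or with that scaling, 0 in the others). The relative median itself was −1.86 in Tg and −1.90 in DMSO, and leaving out any 1 of these libraries kept it between −1.96 and −1.80 in Tg and between −2.58 and −1.22 in DMSO.

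RPL39 was lowest under both treatments. It had 455 and 1049 RPKM in IP Tg, against 2899 and 2568 RPKM in Input Tg, a log2 difference of −1.98 (SE 0.38, limma adjusted p = 1.98e-05). In IP DMSO it had 937 and 957 RPKM, against 2819 and 4482 RPKM in Input DMSO, and fell by 1.91 on the log2 scale (SE 0.38, limma adjusted p = 7.92e-05). Every IP value of RPL39 was far below every Input value. RPL29 had 744 and 884 RPKM in IP Tg, against 2511 and 3595 RPKM in Input Tg, a difference of −1.89 (SE 0.37, limma adjusted p = 3.02e-05). RPL29 had 883 and 1345 RPKM in IP DMSO, against 2902 and 5472 RPKM in Input DMSO, a difference of −1.87. RPL28 had 168 and 196 RPKM in IP Tg, against 659 and 588 RPKM in Input Tg, and 239 and 215 RPKM in IP DMSO, against 754 and 858 RPKM in Input DMSO. Its IP libraries were close to each other and far below both Input libraries.

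By role, all 4 stalk proteins were lower in the IP than in the Input under each treatment, and 3 of them passed. RPLP0 had 879 and 988.5 RPKM in IP Tg, against 2477 and 3244 RPKM in Input Tg, a difference of −1.60 (SE 0.39, limma adjusted p = 0.00128). In IP DMSO it had 819 and 1000 RPKM, against 2312 and 1636 RPKM in Input DMSO, a difference of −1.10 (SE 0.39, limma adjusted p = 0.0279). RPL12, which anchors the stalk region, fell under both treatments, with differences of −1.76 in Tg and −1.69 in DMSO, and so did RPLP1, with −1.51 and −1.32. RPLP2, the partner of RPLP1 in the stalk, was at −0.75 and −0.82 and did not pass. Among 8 tested exit tunnel proteins, RPL19, RPL35 and RPL39 passed in Tg and RPL35 and RPL39 in DMSO. RPL35 takes part in the docking of the signal recognition particle at the tunnel exit. Of the interface proteins, RPL41 passed in Tg alone, with 1077 and 1618 RPKM in IP Tg, against 3210 and 3384 RPKM in Input Tg. Neither RPL5 and RPL11 nor the catalytic proteins RPL3, RPL8 and RPL10 passed under either treatment. Median differences in log2(RPKM + 1) were −1.56 for the stalk, −1.15 for the interface, −0.96 for the exit tunnel, −0.80 for the catalytic centre and −0.45 for RPL5 and RPL11 in Tg. In DMSO they were −1.21, −0.89, −0.82, −0.73 and −0.12, in that order of groups.

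**Figure D3:**
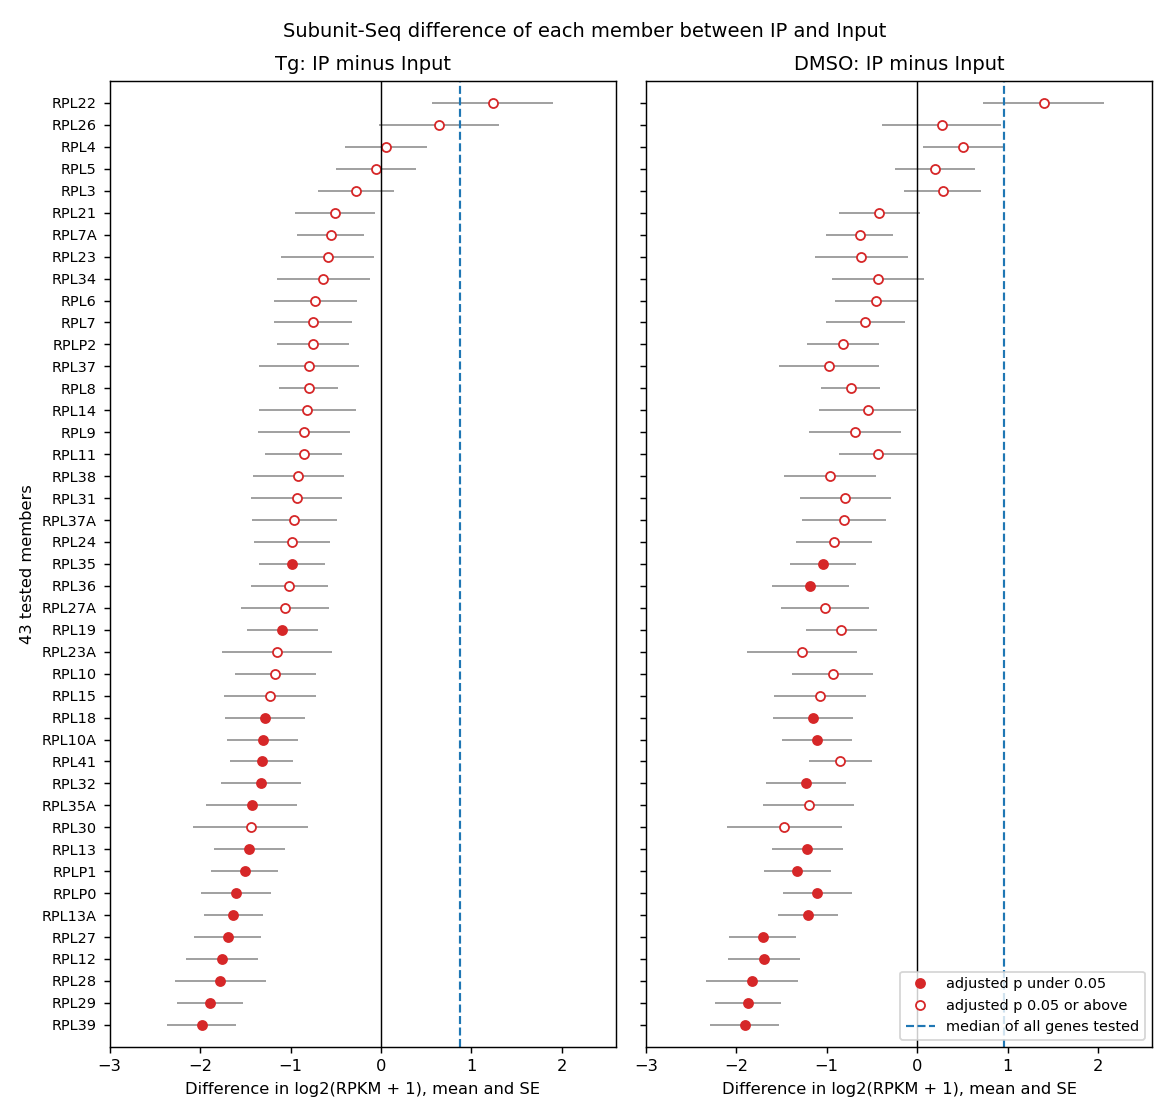
Difference in log2(RPKM + 1) between IP and Input for each of the 43 tested members with its SE (n = 2 libraries per group), in Tg on the left and DMSO on the right; filled points have an adjusted p under 0.05 and the dashed line is the median of all genes tested. Of the 43 members, 40 lie below 0 in Tg and 38 in DMSO, and RPL22 alone lies to the right of the dashed line in each.

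A few members stood apart from this pattern. RPL22, an exit-side protein with the close paralogue RPL22L1, had 25.9 and 44.1 RPKM in IP Tg, against 11.7 and 16.35 RPKM in Input Tg, a difference of 1.23 (SE 0.67, limma adjusted p = 0.169). In IP DMSO it had 44.0 and 37.45 RPKM, against 18.2 and 11.9 RPKM in Input DMSO, a difference of 1.40 (SE 0.67, limma adjusted p = 0.0992). Both IP libraries were above both Input libraries in each case, and neither difference passed. RPL26 was at 0.64 in Tg and 0.27 in DMSO. RPL4 had 756 and 636 RPKM in IP Tg, against 532 and 836 RPKM in Input Tg, a difference of 0.06, and was at 0.51 in DMSO. RPL5 was at −0.05 in Tg and 0.20 in DMSO, and RPL3 at −0.27 and 0.28, with the sign changing between treatments. By mean RNA-Seq RPKM, RPL4, RPL5 and RPL3 ranked 29, 22 and 21 among the 45 members, while RPL22 and RPL26 were the lowest 2 of those tested.

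Counting the reads of each member together with those of its pseudogene rows left the pattern in place. As a share of the library, the median log2 ratio of IP over Input across the 45 members was then −1.08 and −0.94 in Tg, replicates 1 and 2, and −0.49 and −1.31 in DMSO. With the member's own reads alone it was −1.09 and −0.94 in Tg and −0.51 and −1.31 in DMSO. RPL22 stayed above 0 in all 4 pairs, at 0.84 and 1.29 in Tg and 1.08 and 1.33 in DMSO. RPL26 did not: it was at −0.30 and 0.02 in Tg and 0.55 and −0.92 in DMSO. RPL17 and RPL36A, which could not be read from their own rows, changed sign between pairs, from −1.38 to 0.40 for RPL17 and from −0.69 to 0.78 for RPL36A.

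Other abundant genes were mostly low in the IP as well, though less so at the median than the members when only protein-coding genes were counted. Classes by mean level over the RNA-Seq libraries, which do not enter the difference, were set after the values were seen and leave out ribosomal protein genes, their named pseudogenes and mitochondrial genes. The 23 other genes at 300 RPKM or more that RefSeq lists as protein-coding, among them EEF1A1, RACK1 and GAPDH, had a median IP minus Input of −0.68 in Tg and −0.78 in DMSO. The 36 members at that level had −1.04 and −0.95. Of those 23 genes, 17 were below 0 in Tg and 18 in DMSO, against 35 and 33 of the 36 members. With the other RNAs of that level added, such as RN7SL2 and BCYRN1 and rows without a name, the 53 genes had −1.03 and −1.08. Lower classes of other protein-coding genes had −0.44 and −0.48 at 100 to 300 RPKM (120 genes), 0.45 and 0.49 at 10 to 100 RPKM (1554 genes), and 1.07 and 1.22 at 1 to 10 RPKM (5417 genes). The 3 members at 100 to 300 RPKM had −0.82 and −0.80, also below the other genes of their class. The 4 at 10 to 100 RPKM had medians of −0.25 and −0.50 but were split, with 2 below 0 under each treatment. Of the others, RPL22 lay above the median of its class under both treatments and RPL26 in Tg alone. Classed instead by mean Input level, which does enter the difference, 62 other protein-coding genes at 300 RPKM or more had −0.68 in Tg and −0.85 in DMSO. The 39 members at that Input level had −0.98 and −0.94, so they were close to the other genes in DMSO. The difference between members and other genes of a class was not tested. Among the 43 members, the Spearman correlation of IP minus Input with mean Input RPKM was −0.51 in Tg and −0.42 in DMSO, where the Input enters both measures. With gene length it was 0.18 in both, and with tract length 0.08 and 0.06 over 32 members.

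**Figure D4:**
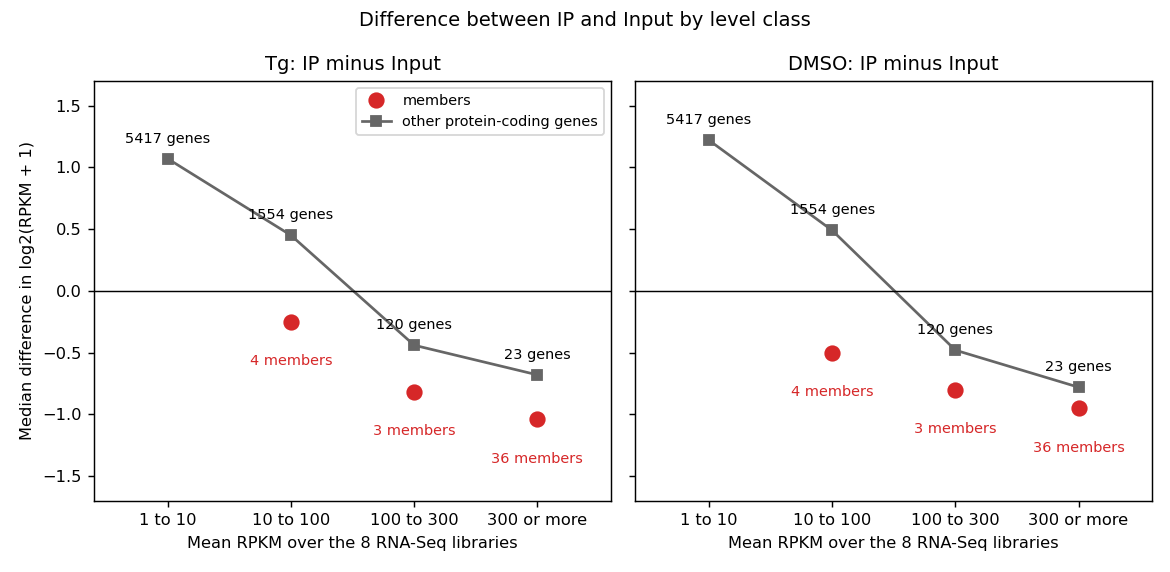
Median difference in log2(RPKM + 1) between IP and Input in 4 classes of mean RNA-Seq level (RPKM), in Tg on the left and DMSO on the right, for members (circles) and other protein-coding genes (squares joined by a line), with the number of genes at each point. The 36 members at 300 RPKM or more lie at −1.04 in Tg and −0.95 in DMSO, and the medians of the other genes go down with level to −0.68 and −0.78.

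Related gene lists were set beside the members. Proteins of the small subunit had a median IP minus Input of −1.17 in Tg and −1.03 in DMSO, beside 0.87 and 0.96 for all genes, with 15 and 16 of 31 called lower and 0 higher. The other TOP mRNAs, mostly elongation factors and initiation factor subunits, had 0.17 and 0.73, or −0.71 and −0.23 relative to all genes, with 12 and 10 of 17 below the median of all genes, 0 called lower and 2 and 4 called higher. Large-subunit assembly factors had 0.83 and 1.41, or −0.04 and 0.44 relative to all genes, with 0 of 35 called in Tg and 11 called higher in DMSO. Regulators of TOP mRNAs, such as LARP1 and members of the mTOR pathway, were at 0.32 and 0.33 relative to all genes, with 2 and 4 of 14 called higher. Of 7 tested further large-subunit genes, mostly paralogues, 2 were called lower under each treatment, and 0 in Tg and 1 in DMSO were called higher. The 2 ribosomal subunits thus shared a low position, and no assembly factor, regulator or other TOP mRNA was called lower. No difference between lists was tested.

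No member passed the test of whether IP minus Input differed between Tg and DMSO. The difference, Tg minus DMSO, had a member median of −0.14, against −0.07 for all genes, and limma called 0 of 43 members, against 0.0611% of all genes, with 0 members and 86 genes at an unadjusted p under 0.05. It ranged from −0.55 for RPL3 and −0.50 for RPLP0 to 0.18 for RPL37 and 0.37 for RPL26, with SEs of 0.46 to 0.95. Its relative median of −0.07 was −0.87 in replicate number 1 and 0.95 in replicate number 2. It was −0.68 without Input DMSO replicate 2, −0.61 without IP DMSO replicate 2, 0.60 without Input DMSO replicate 1, 0.48 without IP DMSO replicate 1 and 0.04 without Input Tg replicate 1. In the Input alone, Tg minus DMSO had a member median of −0.21, against 0.15 for all genes, and limma called 0 members, against 0.051% of all genes, with 0 members and 323 genes at an unadjusted p under 0.05. Both Input Tg libraries were below both Input DMSO libraries for 9 members, against 8.23% of all genes, with RPL7A lowest at −0.70 and RPL23 next at −0.61, while RPLP0 was highest at 0.54 and RPL4 next at 0.10. The relative median of −0.36 was 0.19 without Input DMSO replicate 2. In the IP alone, the member median was −0.35, against 0.07 for all genes, and limma called 0 members, against 0.0713% of all genes, with 0 members and 165 genes at an unadjusted p under 0.05. Both IP Tg libraries were below both IP DMSO libraries for 14 members, against 7.48% of all genes, among them RPL7A at −0.62. RPL37A was at −0.60, RPLP0 at 0.04 and RPL26 at 0.06. The relative median of −0.42 was 0.10 without IP DMSO replicate 1. Comparisons that share an Input or an IP group are not independent.

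Members with a profile like that of RPLP0 over the 16 libraries were RPL18, RPL10 and RPL28, with Pearson correlations of log2(RPKM + 1) of 0.93, 0.91 and 0.90. The 16 libraries share 2 assays and 2 replicate numbers, so this is a description of these libraries. RPL26 and RPL22 had the lowest values, −0.40 and −0.37.

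m6A sites were listed inside the RefSeq span of 40 of the 45 members in at least 1 of the 4 lists. The span includes introns, and sites were not placed in exons or introns, so a counted site need not lie in the mature mRNA. The DD Tg list held 266 member sites of 5050 (5.27%, 95% Wilson interval 4.69 to 5.92), and the DD DMSO list 82 of 1796 (4.57%, 3.69 to 5.63). The WT Tg list held 39 of 1572 (2.48%, 1.82 to 3.37), and the WT DMSO list 161 of 3000 (5.37%, 4.62 to 6.23). In WT cells the member share was lower in the Tg list than in the DMSO list, and the intervals did not overlap. In DD cells the intervals overlapped. The intervals take each site as independent, while sites clustered in some genes, such as RPL36 with 67 listings over the 4 lists. They may therefore be too narrow. Each group has a single list with no coverage or score, so no test between groups was possible and intervals cover counting error only. Small-subunit genes took 3.23% of the DD Tg list, 1.84% of DD DMSO, 1.78% of WT Tg and 3.03% of WT DMSO. A site in DD Tg was listed for 39 members, in DD DMSO for 23, in WT Tg for 21 and in WT DMSO for 36, and 13 members had a site in all 4 lists. The number of sites per list differed, and their depth is unknown.

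RPL36 held the most sites in all, 27 in DD Tg, 14 in DD DMSO, 7 in WT Tg and 19 in WT DMSO, over a gene of 1581 bases on chr19:5690295-5691875. RPL13 had 28, 7, 4 and 9 in the same order of lists, RPL29 had 18, 13, 3 and 10, and RPL8 had 19, 9, 3 and 11. All 4 lists held sites in these 4 genes, and the WT Tg list, the shortest, had the fewest in each. RPL32 had 14, 4, 0 and 8, and RPL28 had 14, 3, 2 and 2. Of the stalk genes, RPLP1 had 8, 2, 0 and 2, RPLP2 had 6, 1, 1 and 4, RPLP0 had 5, 0, 0 and 2, and RPL12 had 2, 0, 0 and 2. RPL7, RPL9, RPL22, RPL23A and RPL36A had none in any list. The Spearman correlation of site number with mean RNA-Seq RPKM over the 45 members was 0.33 in DD Tg, 0.23 in DD DMSO, 0.23 in WT Tg and 0.35 in WT DMSO.

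**Figure D5:**
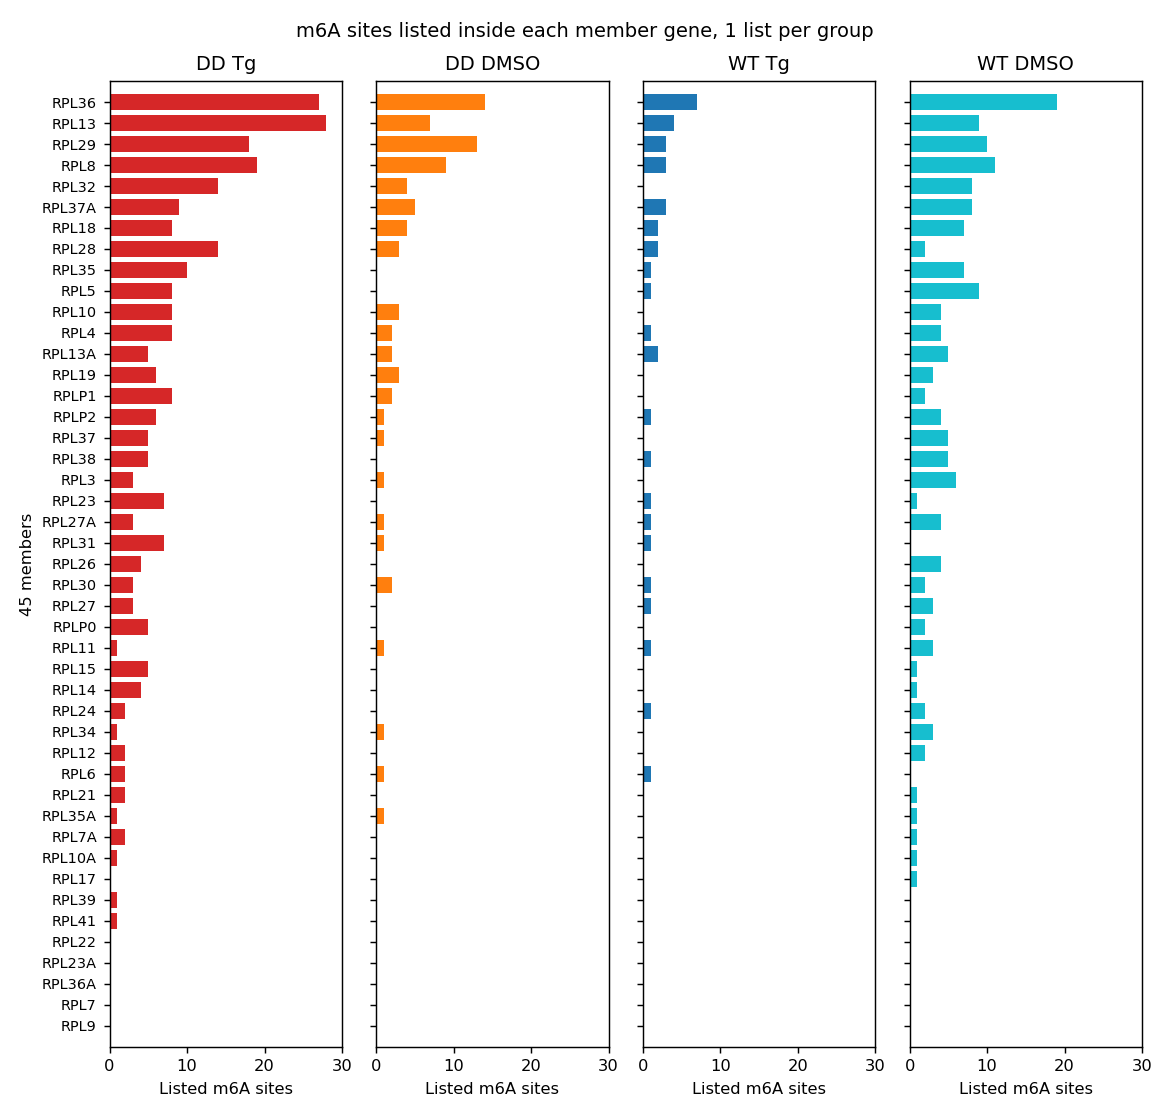
Number of m6A sites listed inside each of the 45 member genes in DD Tg, DD DMSO, WT Tg and WT DMSO, 1 list per group, with members ordered by their total. RPL36 and RPL13 lead in DD Tg with 27 and 28 sites, and the WT Tg list has at most 7 in any member.

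The lists shared few exact positions. Of 416 distinct positions, 331 were in a single list, 51 in 2, 21 in 3 and 13 in all 4. Those in all 4 lay in RPL8, RPL11, RPL13, RPL18, RPL27A, RPL29, RPL36 and RPL37A, among them chr19:5691647-5691647 and chr19:5691656-5691656 in RPL36 and chr3:51993684-51993684 and chr3:51993720-51993720 in RPL29. Between DD Tg and DD DMSO, 44 positions were shared, 16.5% of the DD Tg and 53.7% of the DD DMSO member sites. Between WT Tg and WT DMSO, 18 were shared, 46.2% of the WT Tg and 11.2% of the WT DMSO member sites. WT Tg shared 29 with DD Tg, 74.4% of its own sites. The smaller list of each pair was thus the one with the larger share in common. Within the RefSeq span of the gene, introns included, the median position was 42.9% of the way from start to end in DD Tg. It was 78.8% in DD DMSO, 80.1% in WT Tg and 56.9% in WT DMSO. In that order of lists, 14.3%, 24.4%, 28.2% and 19.9% of the sites lay in the last 200 bases of the span. For the 38 members with a listed strand only sites on it were counted, and for the other 7 both strands were.

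Of all member sites, 8 positions lay within the RefSeq start windows, where the letters around them can be read. Shown are 4 of them, those of RPL36 and RPLP2 that were in more than 1 list and those of RPL21 and RPL31 nearest a start, with the base at the listed position in capitals (RefSeq, GRCh38.p14, plus strand).
RPL36 (chr19:5690318-5690342): agagcagcaggtAagtggtttcccg
RPLP2 (chr11:809985-810009): caccgaggtcgcAcgcgtgagactt
RPL21 (chr13:27251565-27251589): gccggaaccgccAtcttccaggtag
RPL31 (chr2:101002303-101002327): tggacgctgcagAgtgagtatgggt
The RPL36 position was in the DD Tg, DD DMSO and WT DMSO lists, the RPLP2 position in DD Tg and WT DMSO, and the RPL21 and RPL31 positions in DD Tg alone. All 8 positions held an A, the base that carries this modification. In 1 of the 8, that of RPLP2, the next base was a C. The usual m6A motif also has A or G before the modified A, where RPLP2 has a C, so the motif was not matched.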

How the data were processed

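RNA-Seq and Subunit-Seq values were RPKM per gene as deposited by the authors, 1 table for RNA-Seq and 1 for each Subunit-Seq replicate number, with no RPKM column left unmapped to a sample (0 columns). The m6A lists were other data, chromosome, position and strand of each site, deposited by the authors as 1 list per group. Of tools, cutadapt, STAR, BWA and DESeq2 are named in the submitters' processing notes, with the build GRCh38 and without versions. How the RPKM were scaled and which annotation was used are not given in the sources used here. Whole reads could be recovered from the RPKM steps for all 26179 genes above 0 in at least 3 libraries (values whole within 0.02 reads), which gave the depths.

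Tests used limma 3.58.1 in R 4.3.3 on log2(RPKM + 1), so differences of low genes are understated, kept for genes that averaged 1 RPKM or more over the 8 RNA-Seq or the 4 Input libraries, two-sided, Benjamini-Hochberg over all genes tested, called at 0.05. RNA-Seq libraries shared replicate numbers only and were fitted without a block. Their differences between replicates 2 and 1 nonetheless correlated at 0.743 to 0.864 among WT DMSO, WT Tg and DD DMSO. The RNA-Seq SEs and p-values thus include the difference between replicate numbers. RNA-Seq fits with 1 library left out had no block unless stated, so replicate numbers were then uneven between groups. Subunit-Seq libraries were fitted with the replicate number as a block, since the authors deposited them as 1 table per number; differences between replicates 2 and 1 correlated between groups at 0.002 to 0.51. Limma pooled the Subunit-Seq spread fully over genes. Start sequences and gene spans came from RefSeq tables of GRCh38.p14, matched by symbol, with a start sequence for 38 of 45 members.

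Members named with values were the highest and lowest 3 by RNA-Seq level, the highest and lowest 2 of each comparison, the role groups and those with m6A sites; the remaining ones, such as RPL28, RPL29 and RPL39 in further comparisons, were chosen after their values were seen. The members, lists and comparisons were chosen with earlier results of these data known. Level classes, the RefSeq biotype used in them and the sums with pseudogene reads were added after the values were seen.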

Additional observations from a re-analysis of the deposited data

Results flagged for a closer look

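RPL34 was flagged because DD minus WT was above 0 in both replicate numbers under Tg and below 0 in both under DMSO. The 43 tested members were searched for this pattern, and RPL34 was the only one to show it. The share of all genes with this pattern was not counted, so whether it is rare is not known. It had 1087 and 240 RPKM in DD Tg, 917 and 246 RPKM in DD DMSO, 765 and 207 RPKM in WT Tg, and 1113 and 265 RPKM in WT DMSO, replicate 1 first. The difference between both contrasts was 0.55 in log2(RPKM + 1) (SE 1.65, limma adjusted p = 1.00) and did not pass the test. The cause was not tested.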

How the results depend on the processing

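The RNA-Seq count of members called was 0 in every comparison and alternative tried, which included a replicate block; the block also left the WT Tg minus DMSO relative median at −0.35. Differences between RNA-Seq replicates 2 and 1 correlated across genes at 0.743 to 0.864 among WT DMSO, WT Tg and DD DMSO and at 0.134 to 0.299 with DD Tg. The WT Tg minus DMSO relative median was −0.40 with a pseudocount of 0.1, −0.23 with no filter, −0.34 at a mean of 5 RPKM, −0.39 with median-ratio scaling, −0.36 outside mitochondrial ribosomal RNA, −0.39 with voom weights on recovered reads, and −0.69 to 0.066 with 1 library left out. DD minus WT in DMSO was −0.31 to 0.34 with 1 library left out. Both ranges with 1 library left out came from fits without a replicate block. Members called in IP minus Input were 10 in Tg and 8 in DMSO with a pseudocount of 0.1, 9 and 8 with voom weights, 8 and 5 with the compared groups alone, and 8 in DMSO at a mean of 5 RPKM. They were 0 and 0 with no filter, with median-ratio scaling, with each gene's own spread (an alternative chosen after seeing the data) and with no replicate block, where all genes called were 36 in Tg and 24 in DMSO, against 1591 and 2272 with the block. With 1 library left out they were 0 to 17 in Tg and 0 to 16 in DMSO. The Tg relative median was −2.06 with a pseudocount of 0.1, −1.43 with no filter, −1.53 at a mean of 5 RPKM, −2.13 with median-ratio scaling, −2.05 with voom weights, and −1.96 to −1.80 with 1 library left out. The causes were not tested. m6A counts in members moved by at most 2 sites in the 12 alternatives. With 2 libraries per group and depths of 4508483 reads upward, counting error was small beside the spread between replicates. Which reads belong to RPL17, RPL36A and RPL26 cannot be told from pseudogene rows, and the m6A depth is unknown.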
